A study of Rattus norvegicus with 14 samples.

Results

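The 9 genes described here encode the core of the tight junction at the blood-CSF barrier: the claudins Cldn1, Cldn2, Cldn3, Cldn5 and Cldn11, the MARVEL proteins Ocln and Marveld2, the junctional adhesion molecule F11r and the scaffold Tjp1. They were chosen by name, not by their values, as the probes whose accession maps to one of these symbols, with the brightest probe kept for each gene, and all 9 of 9 were found among 15154 named genes. RNA came from the lateral ventricle choroid plexus (CP) of Wistar rats aged 2 months at surgery and killed 2 weeks later, and each 1-colour array carried 200 ng of RNA pooled from 3 animals. The groups were sham-operated females (n = 3 pools), ovariectomized (OVX) females (n = 3), sham-operated males (n = 4) and orchidectomized (OOX) males (n = 4), as the array labels give them, although the methods describe 3 pools per group. The controls had thus been operated on too, no hormone was given back, and the tissue was the whole plexus. The study asked how gene expression in CP changes when the sex glands are removed. It is not given if pools shared animals, and p-values therefore measure the spread between these pools, which may not be independent.

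Tight junctions close the gap between neighbouring epithelial cells. In CP, whose capillaries are fenestrated, they seal the epithelium itself and so form the barrier between blood and CSF. Claudins set how tight and how selective the seal is: some close it, whereas Cldn2 forms a pore for small cations and water, and the scaffold proteins of the ZO family tie the strands to actin. Cldn5 is the main claudin of brain endothelium, and Cldn11 makes the junctions of myelin as well as those of some epithelia.

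None of the 9 genes passed a Benjamini-Hochberg adjusted p under 0.05 (limma) after OVX, where 6.22% of all genes did, or after OOX, where 0.0858% did. At an unadjusted p under 0.05, 2 of 9 differed after OVX, beside 19.9% of all genes, and both, Cldn1 and Ocln, were lower, beside 10.7%; after OOX 2 of 9 did (Tjp1 higher and Marveld2 lower), beside 6.88%. These same pairs were the genes whose arrays did not overlap between groups, beside 27.6% of all genes in females, where 16.2% were lower without overlap, and 4.01% in males. The unmoderated test that the methods name, at their limits of 0.05 for the unadjusted p and 1.5 for the fold, called Cldn1 alone in females and 0 genes in males, and after Benjamini-Hochberg adjustment 0 in both. The median log2 difference of the 9 genes was -0.12 after OVX, with 8 of 9 lower (of which Cldn2 and F11r turned with each other scaling but normexp, and Cldn3 with quantiles), beside -0.07 over all genes, and 0.05 after OOX, beside 0.02. Of all 15154 genes, 8876 were lower after OVX.

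Cldn1, a sealing claudin of many epithelia, and Ocln, a membrane protein of the strands, had the smallest p in females, and the bases upstream of their starts are given here so that the 2 genes can be read with their control region. Each line holds the 250 bases before the annotated start, 5′ to 3′ on the strand of the gene, from RefSeq (build GRCr8); the Cldn1 window is chr11:87926126-87926375 (plus strand) and the Ocln window chr2:33441199-33441448 (minus strand). Capitals mark GGGCGG (the GC box) in Cldn1 and GGTCA (1 arm of the estrogen response element) in Ocln.
Cldn1: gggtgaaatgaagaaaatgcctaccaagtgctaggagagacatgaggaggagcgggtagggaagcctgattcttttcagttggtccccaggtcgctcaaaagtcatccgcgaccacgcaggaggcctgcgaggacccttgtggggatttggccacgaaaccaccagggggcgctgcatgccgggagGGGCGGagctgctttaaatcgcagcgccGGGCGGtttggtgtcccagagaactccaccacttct
Ocln: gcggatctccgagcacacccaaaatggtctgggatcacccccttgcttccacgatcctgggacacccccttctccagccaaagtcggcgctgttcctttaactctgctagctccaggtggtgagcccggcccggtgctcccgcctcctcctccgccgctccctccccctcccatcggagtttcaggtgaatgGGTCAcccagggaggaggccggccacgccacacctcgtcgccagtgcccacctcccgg

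Letters were searched on both strands in the promoters of 8 of the 9 genes, which matched an entry, and in 33469 rat promoters of the same length. GGTCA was found in 2 of 8, Ocln and Cldn11, beside 35.4% of all promoters, and in Ocln it begins 58 bases before the start. The full palindrome, GGTCA and TGACC with 3 bases between them, was in 0 of 8 and in 0.0239% of all promoters, and AGAACA, 1 arm of the androgen response element, in 0 of 8 beside 17.5%. GGGCGG was in 5 of 8 (Cldn1, Cldn3, Cldn5, Cldn11 and F11r) beside 30.5%, and Cldn1 holds it at 64 and 36 bases before the start. A match in letters is a description of the window and does not show a bound site. These windows follow the annotated starts, and starts used only in CP were not examined.

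**Figure D1:**
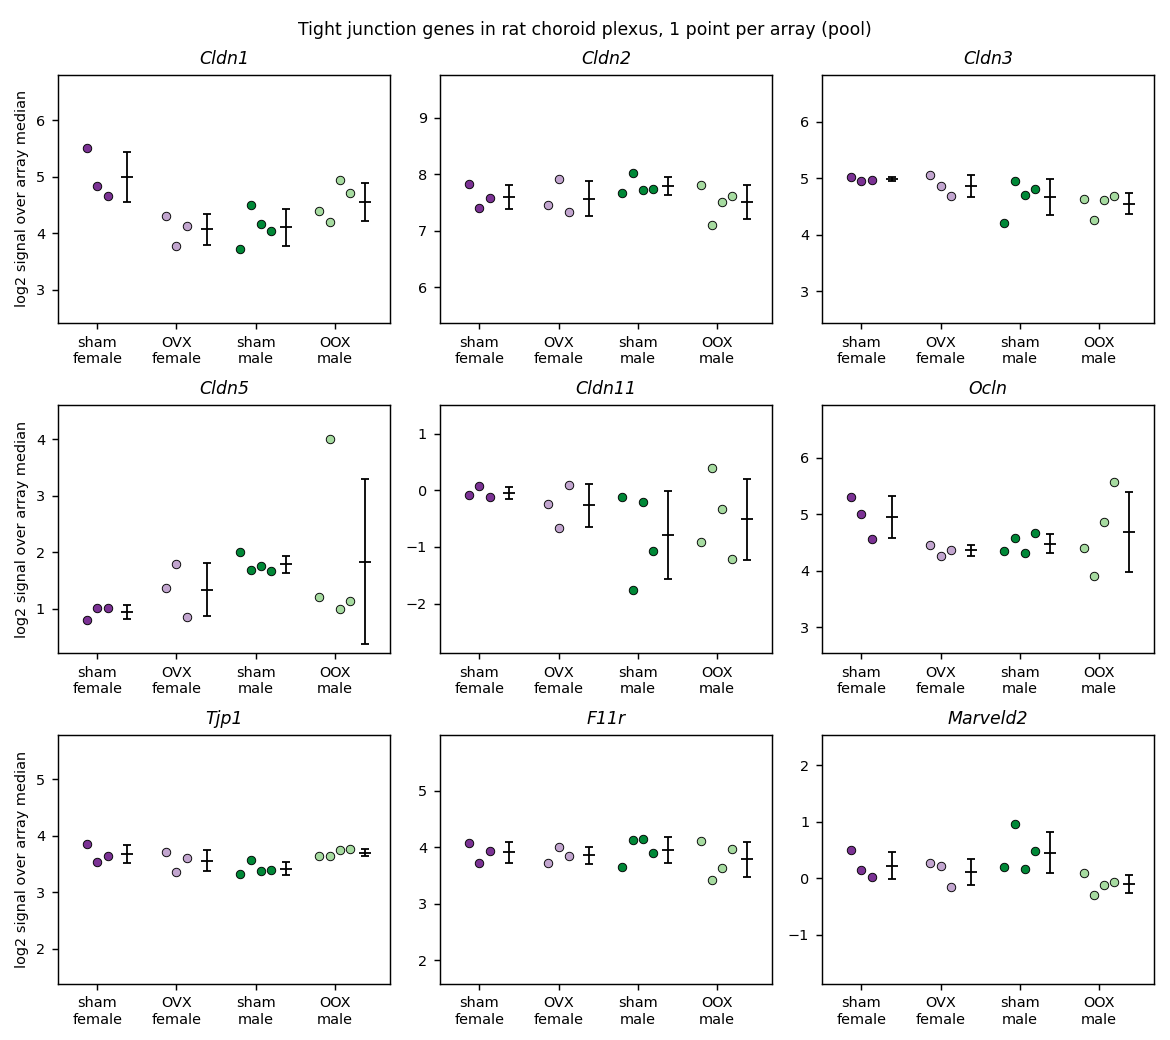
Log2 signal over the array median (vertical axes, all of the same span) of the 9 tight junction genes in sham and OVX females and sham and OOX males, with 1 point per array and bars for the mean ± SD (n = 3, 3, 4 and 4). Cldn1 is highest in the sham females, and 1 OOX array stands far above all others in Cldn5.

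All values are log2 signals with the median of their own array subtracted, so that 0 is the middle of the array; since probes differ in brightness, levels are compared between arrays and not between genes. All 9 genes were well above background on all 14 arrays and saturated on none. The 12 markers of CP epithelium were above background too, and 5 of them, among them Ttr and Folr1, were saturated on all 14 arrays, Otx2 on 13 and Aqp1 on 4, so that only the other 5 have levels that can be compared. Cldn1 read 5.50, 4.84 and 4.66 in sham females and 4.31, 3.77 and 4.14 in OVX females. Every OVX array lay below every sham female array. In males it read 3.72, 4.50, 4.17 and 4.03 in sham and 4.39, 4.20, 4.94 and 4.71 in OOX pools, and these ranges overlapped. The order of the group means was sham female (5.003 ± 0.44, SD, n = 3), OOX male (4.56 ± 0.33, n = 4), sham male (4.11 ± 0.32, n = 4) and OVX female (4.07 ± 0.28, n = 3), and each neighbour in this order overlapped the next.

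The log2 difference of Cldn1 after OVX was -0.93 (SE 0.26, 95% CI -1.56 to -0.30), a level 1.91-fold lower, with an adjusted p of 0.09 in limma, which ranged from 0.0737 to 0.982 over the alternatives. After OOX it was 0.45 (SE 0.22, 95% CI -0.05 to 0.96, adjusted p = 0.684). The male effect minus the female effect was 1.38 (SE 0.36, 95% CI 0.61 to 2.16), with an unadjusted p of 0.00202 and an adjusted p of 0.186 in limma. This was the smallest p of the 9 genes in that comparison, in which 0 of 9 passed the adjusted threshold beside 0.251% of all genes, and 2 of 9, Cldn1 and Tjp1, had an unadjusted p under 0.05 beside 10.3%. The difference between the sexes was 0.76 with slide as a block (adjusted p = 1, limma) and 1.15 with scan day. Only 1 slide held both a sham and an OVX female pool, and within it the Cldn1 difference was -0.35; the slide with both male groups gave 0.60. Blocking on scan day gave -0.69 in females (adjusted p = 0.539, limma). Slide and group overlapped too little here to be told apart.

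Ocln showed the same order of groups in females. It read 5.31, 5.005 and 4.57 in sham females and 4.47, 4.26 and 4.37 in OVX females, again with no overlap. The difference was -0.60 (SE 0.21, 95% CI -1.097 to -0.10, 1.51-fold lower), with an unadjusted p of 0.0256 and an adjusted p of 0.151 in limma. Within the shared slide it was -0.11, and with scan day as a block -0.50. In males Ocln read 4.36, 4.58, 4.32 and 4.66 in sham and 4.40, 3.91, 4.87 and 5.57 in OOX pools. The OOX pools spread over 3.14-fold from lowest to highest, on both sides of the sham pools, and the difference was 0.21 (SE 0.32, 95% CI -0.53 to 0.94); without OOX replicate 4 it was -0.09, and within the shared slide, where that pool is the OOX pool, 1.096.

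Markers of cell types were read in the same female comparison, in which 8876 of all 15154 genes were lower. Over all genes, 6.22% passed and 19.9% had an unadjusted p under 0.05 (limma). All 11 measured markers of stromal and meningeal fibroblasts had a lower signal over the array median after OVX, with a median log2 difference of -0.56. Igfbp2, 1 of them, was saturated on all 14 arrays and has no measured difference. Of the 11, 2 passed, Aldh1a2 (-0.82, SE 0.18, adjusted p = 0.0459, limma), an enzyme of retinoic acid synthesis, and Mgp (-0.82, SE 0.18, adjusted p = 0.0489, limma), an inhibitor of calcification. The mean level of this list, Igfbp2 included, was 4.12 to 4.44 in sham and 3.50 to 4.02 in OVX females. Of the 5 markers of CP epithelium that no array saturated (Car12, Clic6, Kl, Prlr and Slc4a5), all 5 were lower after OVX, with a median of -0.16; 0 passed in limma and 1, Prlr, had an unadjusted p under 0.05. Their mean level was 5.48 to 5.76 in sham and 5.21 to 5.47 in OVX females. Within the shared slide Car12 (0.08) and Kl (0.22) were higher, and Clic6 (-0.01), Slc4a5 (-0.095) and Prlr (-0.40) lower. Medians within it were -0.31 for the fibroblast, -2.16 for the neuron and -0.61 for the astrocyte markers. Neuron markers had a median of -0.90, with 9 of 10 lower and mean levels of -1.31 to 0.50 in sham and -1.65 to -0.35 in OVX females, and astrocyte markers one of -0.45, with 7 of 8 lower, 2 of them at an unadjusted p under 0.05, and mean levels of 2.96 to 3.72 and 2.79 to 3.39; none of either list passed in limma. In bulk tissue fewer cells of a type and less RNA per cell cannot be told apart, and the part of these shifts in the values of Cldn1 and Ocln was not tested.

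**Figure D2:**
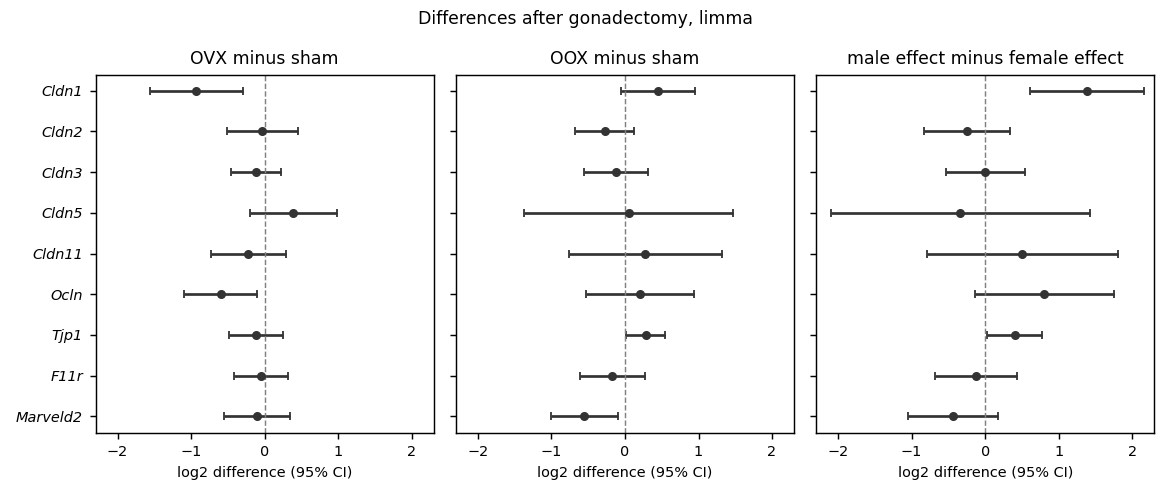
Log2 differences (horizontal axes) with 95% confidence intervals from limma for the 9 genes after OVX (n = 3 and 3) and OOX (n = 4 and 4), and for the male effect minus the female effect. The interval of Cldn1 lies below 0 in females, crosses 0 in males and lies above 0 in the difference between the sexes, and none of the 3 passed the adjusted threshold.

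Cldn3, another sealing claudin, differed little after surgery. It read 4.96 to 5.03 in sham females, 4.68 to 5.06 in OVX females, 4.22 to 4.96 in sham males and 4.27 to 4.69 in OOX males. Its differences were -0.12 in both sexes, with 95% intervals of -0.45 to 0.22 in females and -0.55 to 0.31 in males, and they turned sign within the shared slides (0.09 and 0.10). The pore-forming Cldn2 read 7.11 to 8.02 over all 14 arrays. Its difference was -0.03 after OVX (95% CI -0.52 to 0.45) and -0.28 after OOX (95% CI -0.68 to 0.13). A dimmer probe of Cldn2 gave 0.01 and -0.34, so that both probes were lower in OOX pools and differed in sign in females, at sizes well within the interval.

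Tjp1, which encodes ZO-1, was the most even of the 9 genes, with a range of 1.45-fold over all arrays. It read 3.31, 3.57, 3.38 and 3.40 in sham males and 3.64, 3.64, 3.74 and 3.76 in OOX males. All OOX pools lay above all sham pools. The difference was 0.28 (SE 0.12, 95% CI 0.01 to 0.55, 1.21-fold), with an unadjusted p of 0.0446 and an adjusted p of 0.648 in limma. Within the shared slide, whose only OOX pool is replicate 4, it was 0.32. The other OOX pools lay on a slide without sham males. After OVX the Tjp1 difference was -0.12 (95% CI -0.49 to 0.25). A much dimmer second probe of Tjp1 gave 0.13 after OOX and 0.17 after OVX, the latter opposite in sign to the probe used.

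Marveld2, or tricellulin, seals the corners where several cells meet. It read 0.21, 0.96, 0.17 and 0.48 in sham males and 0.09, -0.29, -0.12 and -0.06 in OOX males. All OOX pools lay below all sham pools. The difference was -0.55 (SE 0.20, 95% CI -1.003 to -0.10, 1.47-fold lower), with an unadjusted p of 0.0223 and an adjusted p of 0.643 in limma. Within the shared slide, whose only OOX pool is replicate 4, it was -0.65. In females it was -0.11 (95% CI -0.56 to 0.34). F11r, or JAM-A, an adhesion molecule of the junction, read 3.43 to 4.15 over all arrays, with differences of -0.05 after OVX (95% CI -0.42 to 0.31) and -0.17 after OOX (95% CI -0.61 to 0.27). In males, 10 of 12 epithelial markers had a lower signal over the array median after OOX; 0 passed in limma, and 7 had an unadjusted p under 0.05, of which 6 are saturated on 13 or 14 arrays and have no measured difference. Of all 15154 genes, 7129 were lower after OOX, and 6.88% had an unadjusted p under 0.05 (limma). Of the 5 markers saturated on no array, 4 were lower, with a median of -0.23, and 1, Car12, had an unadjusted p under 0.05. Their mean level was 5.47 to 5.71 in sham and 5.09 to 5.57 in OOX pools, and their part in the values of Marveld2 was not tested.

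In males the comparison of Cldn5 turned on 1 array. It read 0.81, 1.02 and 1.01 in sham females, 1.37, 1.79 and 0.85 in OVX females, 2.00, 1.69, 1.76 and 1.67 in sham males, and 1.20, 4.01, 0.99 and 1.14 in OOX males. The pool OOX replicate 2 was 7.46-fold above the mean of the other OOX pools, while those pools all lay below the sham males. With all arrays the OOX difference was 0.05 (SE 0.62, 95% CI -1.37 to 1.47). Without that pool it was -0.67 (unadjusted p = 0.00148, adjusted p = 0.309, limma), and without sham male replicate 1 as well it was -0.60 (adjusted p = 0.375, limma). Each array was left out in turn, but OOX replicate 2 is singled out here by its own Cldn5 value, so that the p without it gives no support. Sham male replicate 1 was also high in astrocyte markers, and its removal was chosen with the values in view. Within the shared slide, which does not hold OOX replicate 2, it was -0.71. After OVX the difference was 0.39 (95% CI -0.21 to 0.98).

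OOX replicate 2 also differed from the other OOX pools in genes of vessels, of stroma and of brain tissue. The mean level of 8 mural cell markers was 2.59 there and 0.98 to 1.14 in the other OOX pools, with 5 of 8 at their highest of all 14 arrays in it, among them Acta2, the actin of smooth muscle (2.78 beside 1.13 to 1.49). Astrocyte markers had a mean of 4.21 beside 2.73 to 2.97 in the other OOX pools, and 4 of 8 were highest there. Sham male replicate 1 had 4.09 in astrocyte markers, and in neuron markers 0.92 beside 0.77 in OOX replicate 2. Of 10 endothelial markers 4 were highest in OOX replicate 2. Plvap, of fenestrated capillaries, however read 6.25 beside 5.40 to 6.45 in the other OOX pools, and the receptor Kdr 5.81 beside 5.66 to 6.46. Stromal and meningeal fibroblast markers, with the saturated Igfbp2 included, had a mean of 4.92 beside 3.90 to 4.20 in the other OOX pools. Of these markers 5 of 11 were highest there, among them Aldh1a2 (2.46 beside -2.34 to -0.08 on all other arrays) and the transporter Slc6a13 (2.54 beside -1.54 to -0.02). Of 12 genes known from brain capillaries, a list chosen after these values had been seen, 6 were highest and 1 lowest there. Those highest include the transporter Slco1a4 (4.11 beside 1.99 to 3.20) and the Wnt factor Lef1 (-0.21 beside -4.27 to -1.84). The transporter Slco1c1 was at its lowest (7.38), and Slc2a1, Slc7a5, Itm2a and Mfsd2a lay within the range of the other arrays. Over all genes well above background on every array, 6.69% were highest and 36.6% lowest on this array, and of the 9 tight junction genes 2 were highest (Cldn5 and Cldn11) and 4 lowest (Cldn2, Ocln, F11r and Marveld2). The part of these markers in the value of Cldn5 was not tested.

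**Figure D3:**
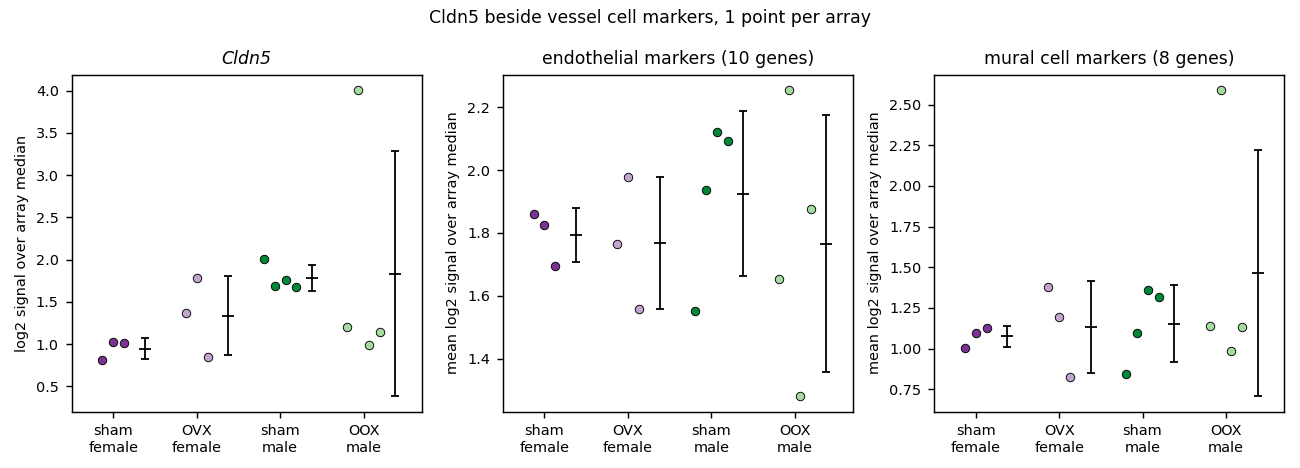
Log2 signal over the array median of Cldn5 (left) and the mean of 10 endothelial (middle) and 8 mural cell markers (right), with 1 point per array and bars for the mean ± SD (n = 3, 3, 4 and 4); the vertical axes differ. OOX replicate 2 is the highest array in all 3 panels, at 4.01, 2.25 and 2.59. In the middle panel sham male replicates 3 and 4 lie close below it, at 2.12 and 2.09.

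Cldn11 varied widely within both male groups. It read -0.09, 0.08 and -0.12 in sham females, -0.24, -0.66 and 0.10 in OVX females, -0.12, -1.77, -0.21 and -1.07 in sham males, and -0.91, 0.40, -0.33 and -1.21 in OOX males. Male pools thus spread 4.49-fold, and both male groups held high and low pools. The differences were -0.23 after OVX (95% CI -0.73 to 0.28) and 0.28 after OOX (95% CI -0.76 to 1.32), and the latter was -0.03 without OOX replicate 2 and -0.05 without sham male replicate 2. The 10 oligodendrocyte markers, measured on the same arrays, had mean levels of 2.51, 1.29, 1.51 and 1.40 in sham males and 1.799, 2.75, 2.18 and 1.55 in OOX males. Their lowest pool, sham male replicate 2, was also lowest in Cldn11, and their highest, OOX replicate 2, was also highest in it, whereas sham male replicate 3 was low in the markers and not in Cldn11. Of the 10 markers, 6 were at their highest of all 14 arrays in OOX replicate 2, and single markers differed. Mog read 0.53, -1.20, -0.59 and -0.82 in sham males and -0.19, 1.26, 0.39 and -0.61 in OOX males. Ermn went another way, with 0.56, 0.85, 0.01 and 0.59 in sham males and 0.54, 0.68, 0.90 and 0.41 in OOX males. Mbp was saturated on 8 of 14 arrays. The part of oligodendrocyte RNA in the values of Cldn11 was not tested.

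**Figure D4:**
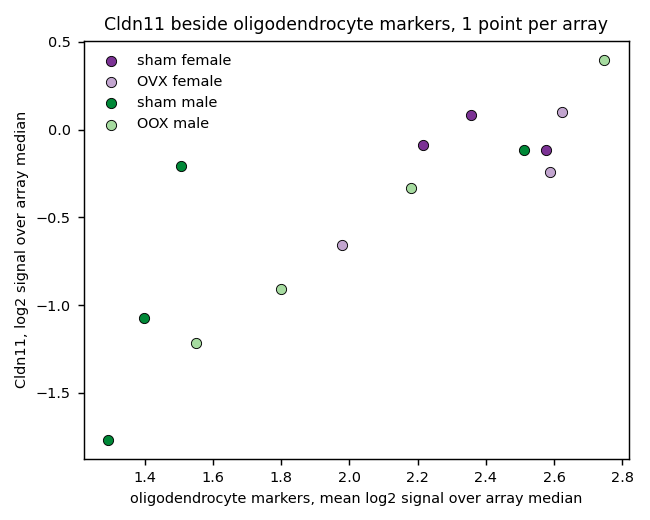
Log2 signal over the array median of Cldn11 (vertical axis) against the mean of 10 oligodendrocyte markers (horizontal axis), with 1 point for each of the 14 arrays, coloured by group. The pool with the lowest markers (1.29) has the lowest Cldn11 (-1.77), and the pool with the highest (2.75) has the highest (0.40).

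Between the sham groups, Cldn1 and Cldn3 were lower and Cldn5 higher in males with no overlap, 3 of 9 genes beside 13.1% of all genes. None of the 9 passed in limma beside 0.389% of all genes, and 1 of 9, Cldn1, had an unadjusted p under 0.05 beside 10.2%. The male minus female differences were -0.90 for Cldn1 (SE 0.25, unadjusted p = 0.00367, adjusted p = 0.168, limma), -0.31 for Cldn3 (SE 0.18, adjusted p = 0.523, limma) and 0.84 for Cldn5 (SE 0.57, adjusted p = 0.586, limma), whose error includes the spread of OOX replicate 2. With slide as a block the Cldn1 difference was -0.21 (adjusted p = 1, limma), and with scan day -0.54. The sham groups shared neither a slide nor a scan day, so that sex and these batches cannot be told apart.

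How the 9 genes varied together was read from the arrays after the group means had been removed, over 14 arrays that share 5 slides, as a description without a test. The closest pair was Cldn1 and Tjp1 (Pearson r = 0.85), followed by Cldn2 and F11r (r = 0.81), and the most opposed was Cldn11 and Marveld2 (r = -0.79). The first and last kept their size without OOX replicate 2 (0.86 and -0.79), and Cldn2 and F11r gave 0.72. Of 11112 other genes, those most like Cldn1 were Dnaaf2, Krr1 and Gucd1 (r = 0.95 to 0.96), and those most like Ocln were Cyth2, Mrpl53 and Slc25a17 (r = 0.95 to 0.96). Eprs1, Nle1 and Kdelr1 were most like Cldn2 (r = 0.97 to 0.98), Trpm2, Nthl1 and Gstt1 most like Cldn3 (r = 0.94 to 0.97), and Zfp566, Alg11 and Usp9x most like Tjp1 (r = 0.92 to 0.96). Wdr91, Ces2c and Spg7 were most like F11r (r = 0.92 to 0.93), Azin1, Hnrnpu and Otud4 most like Marveld2 (r = 0.93 to 0.94), and Ptpro, Mex3b and Mmp16 most like Cldn11 (r = 0.90 to 0.91). The genes most like Cldn5 were Atp10a, Abcb1b and Capg (r = 0.93 to 0.95), and without OOX replicate 2 these values fell to between 0.26 and 0.46.

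The other genes of the junction were read from lists of claudins, membrane proteins, scaffolds, polarity complexes, regulators and adherens junction genes. Of 77 listed, 67 were measured, and after OVX 0 passed as higher and 2 as lower, beside 6.22% of all genes. In the same comparison 10 of 67 had an unadjusted p under 0.05, beside 19.9%. After OOX 0 passed in limma, and 5 of 67 had an unadjusted p under 0.05, beside 6.88%. Ildr1, which recruits tricellulin to cell corners, read 0.20 to 0.44 in sham and -0.47 to -0.32 in OVX females and fell by 0.67 (SE 0.13, adjusted p = 0.0401, limma). It passed in none of the fits that left out 1 array, with an adjusted p of 0.0624 to 0.125, and the difference was -0.52 within the shared slide. The second gene, Bves, an adhesion protein, was not well above background on any of the 14 arrays, and no fold is given. The median difference of the 67 genes was -0.10 after OVX, with 46 lower, and 0.03 after OOX, beside -0.07 and 0.02 over all genes. Within the shared slides the medians of the 67 genes were 0.0036 and 0.0688. With slide as a block those of all genes were 0.0094 and 0.1135. Of all 15154 genes, 8876 were lower after OVX.

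By list, the genes with the smallest p after OVX were Cldn22 (-0.65, SE 0.22, adjusted p = 0.136, limma) and Cldn23 (-1.30, SE 0.44, adjusted p = 0.147, limma) among 19 other claudins. Among the scaffolds Cgnl1, or paracingulin, read 2.35 to 2.65 in sham and 1.68 to 2.21 in OVX females (-0.55, SE 0.18, adjusted p = 0.125, limma). Among the polarity genes Pard6a, of the PAR complex, gave -0.46 (adjusted p = 0.0867, limma) and Crb3 -0.34, and among the regulators Rab13 gave -0.25 and Cttn -0.24. Cdh1, or E-cadherin, of the adherens junction, read -0.18 to 1.37 in sham and -1.03 to -0.24 in OVX females (-1.38, SE 0.42, adjusted p = 0.112, limma). Within the shared slide Cgnl1 gave -0.14, Crb3 -0.02 and Cttn -0.07. Cldn22 gave -0.41 there, Cldn23 -0.89, Pard6a -0.40, Rab13 -0.26 and Cdh1 -1.70. Of these genes Cldn22, Cgnl1, Pard6a, Rab13, Cttn and Cdh1 did not overlap between the female groups, beside 27.6% of all genes. They were picked by their p in this same comparison, so that the lack of overlap adds no support.

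After OOX, the smallest p were those of Cldn17 and Cldn6 (0.50), of Ctnnd1, or p120 catenin (-0.54, adjusted p = 0.543, limma), and of Dlg1, a polarity scaffold (-0.48, adjusted p = 0.606, limma). Cldn17 was dim: 4 of 4 OOX and 1 of 4 sham male arrays had it well above background, no fold is given, and within the shared slide the difference was -0.01. Cldn7, an epithelial claudin, was well above background on 3 of 3 sham female and 0 of 4 sham male arrays. With sham male values raised to at least the weakest signal well above background on their array, its mean was 1.91-fold lower in sham males. That fold carries no sampling error. Cldn7 was picked by its p between the sham groups, so that this fold and the count of arrays well above background add no support. Cldn7 did not pass (adjusted p = 0.0863, limma), where 0.389% of all genes did, and the sham groups shared neither a slide nor a scan day. Cldn7 was also well above background on 2 of 3 OVX and 3 of 4 OOX arrays.

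**Figure D5:**
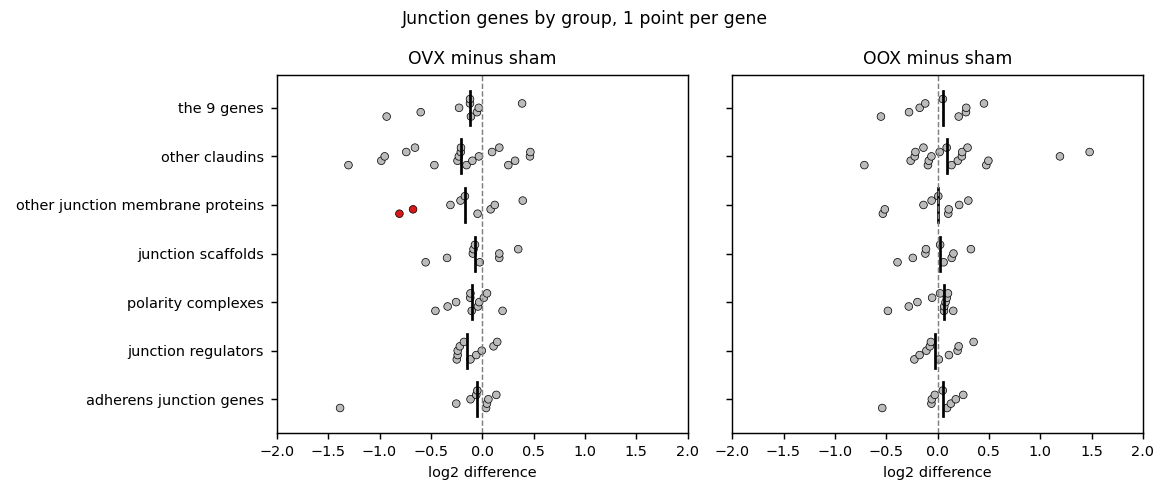
Log2 differences (horizontal axes) after OVX (left) and OOX (right) for the 9 genes and the 6 lists of other junction genes, with 1 point per gene, vertical bars for the medians and red points for an adjusted p under 0.05. Both red points, Bves and Ildr1, lie in the female panel.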

How the data were processed

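Each of 14 arrays held 1 pool of CP RNA. The scanner files, as deposited, give a fluorescence intensity per spot, from which the authors' scanner software (Agilent Feature Extraction 10.5.1.1, per the submitters' processing notes) had subtracted the background. The deposited value table holds log2 values that the authors describe as centred on the median, and was used as an alternative.

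Control spots and outlier spots (222 to 877 per array) were left out, spots of a probe averaged, and the median of 30367 rat probes subtracted from the log2 signal. By RefSeq names (GRCr8), 18004 probes matched 15154 genes, of which the brightest probe was used, and 12363 were unnamed. Well above background were 79.7% to 87.1% of spots; the number of arrays limits the precision. Groups were compared with limma 3.58.1 (lmFit and eBayes) in R 4.3.3 with the package data.table (version 1.17.8), each sex in its own fit and the sexes in 1 fit over all arrays, two-sided, with Benjamini-Hochberg adjustment over 27517 genes and unnamed probes, and tested on simulated data. Other steps used Python 3.11.15, pandas 2.3.3 and numpy 2.4.6.

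Alternatives were other scaling, normexp (offset 50, on the median spot signal, since no mean signal was in the files), the mean over probes, a filter on dim probes, slide, scan day and replicate blocks, all groups in 1 fit, the methods' t-test and leaving out each array. The text names all 9 genes, the genes of each junction list that passed or else up to 2 with the smallest p, markers that passed, and the 3 most similar genes for each; other genes (markers, brain capillary genes and Cldn16) were chosen after their values were seen, and 1 gene that the rule selects is not reported here. The 9 genes and the lists were chosen with earlier results of these data known, and the brain capillary list after these values had been seen. The check of pairing by replicate number gave correlations of -0.02 to 0.14 in females and -0.31 to 0.14 in males, so that the numbers were not taken to pair pools.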

Additional observations from a re-analysis of the deposited data

Results flagged for a closer look

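The Cldn5 level of OOX replicate 2, 4.01 on the log2 scale over the array median, lay far from the other OOX pools: its gap to the nearest of them was 0.93 of the range of the group, above Dixon's limit of 0.829 for 4 samples. Of 18 groups tested, which were the 9 genes in both male groups, this was the 1 past the limit, and chance alone passes it in about 1 in 20 groups. Groups of 3 were not tested.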

How the results depend on the processing

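The count of 0 tight junction genes past the adjusted threshold held in both sexes, in the male minus female effect and between the sham groups under every alternative run, except that the methods' t-test with an unadjusted p and a fold above 1.5 called 1 in females (Cldn1). Values of the 9 genes kept their direction in 323 cases and turned in 28 under alternatives other than leaving out 1 array, and in 294 and 21 when 1 array was left out. None of the turned values had passed the threshold, and the cause was not tested. After OVX the values that turned were Cldn2 (0.0488 with the 75th percentile, 0.13 with quantiles, 0.0225 in the value table), F11r (0.0315, 0.0493 and 0.0052 likewise), Cldn3 (0.0038 with quantiles, 0.0863 with slide and 0.0723 with scan day blocked), Tjp1 (0.0245 with the mean over probes, 0.0653 with slide, 0.0363 with scan day) and Marveld2 (0.24 with slide, 0.0499 with scan day). After OOX, with slide as a block, they were Cldn3 (0.10), Cldn5 (-0.71), Cldn11 (-0.27) and F11r (0.0688), and Cldn5 was -0.60 without OOX replicate 2 and sham male replicate 1. For the male minus female effect they were Cldn2 (0.08), Cldn11 (-0.19) and F11r (0.21) with slide, F11r (0.0192) with scan day and Cldn3 (0.0285) with normexp, and between the sham groups Cldn2 (-0.10), Tjp1 (0.0015) and F11r (-0.27) with slide and F11r (-0.16) with scan day.

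When 1 array was left out, the values that turned ranged after OVX from -0.21 to 0.0853 for Cldn2, -0.14 to 0.0333 for F11r and -0.20 to 0.0274 for Marveld2, after OOX from -0.67 to 0.33 for Cldn5, -0.0484 to 0.51 for Cldn11 and -0.0867 to 0.46 for Ocln, for the male minus female effect from -0.15 to 0.0945 for Cldn3, and between the sham groups from -0.045 to 0.15 for F11r. The count of other junction genes called after OVX, 2 as reported, was 0 with quantiles, normexp, slide, scan day or replicate block, all groups in 1 fit and the adjusted t-test, 1 with the mean over probes and with the filter on dim probes, and 0 with 1 array left out, except that 2 passed without sham female replicate 2, Bves and Cldn16, both dim. The t-test with an unadjusted p and a fold above 1.5 called 3 after OVX (Bves, Ildr1 and Cldn16) and 1 after OOX (Cldn17). With the replicate number as a block Cldn1 gave -0.93 (adjusted p = 0.0801, limma) after OVX, and 0 of the 9 genes passed in either sex. Scan day could not be fitted in males, whose arrays were all scanned on 1 day. No scaling moved the median of all genes by more than 0.1.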
